A study of Drosophila melanogaster with 3 samples.

Results

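The nuclear tRNA genes of Drosophila melanogaster were examined for binding by Insensitive (Insv), a nuclear protein with a DNA-binding BEN domain. All genes of the tRNA class in the Ensembl BDGP6 annotation that lie on the major chromosome arms were taken, which gave 290 of 24166 annotated genes, or of 18277 genes when transposable elements are set aside. The choice used no measured value. Binding was measured by chromatin immunoprecipitation and sequencing (ChIP-seq) in embryos of an insv-GFP line that stably expresses Insv fused at its C-terminal end to GFP, with an anti-GFP antibody. The 3 biological replicates were whole embryos aged 0 to 24 h, male and female pooled, from this single line, and all carry the fusion. There is no second genotype, treatment or age, so genes were compared with other genes and with the rest of the genome. The labels do not say what drives the fusion gene or in which cells, so binding in a few cells and weak binding in many cannot be told apart.

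tRNA genes are transcribed by RNA polymerase III, which reads from promoter elements inside the gene, called the A box and the B box. The factor TFIIIC binds these boxes and places TFIIIB just upstream of the start, and the polymerase stops at a short run of T. Insv is known as a corepressor in the Notch pathway and binds a palindromic DNA site; the related Elba complex binds an asymmetric form of it.

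The authors' list of peaks that passed their reproducibility test (irreproducible discovery rate, IDR) held 4753 peaks, with a median length of 510 bp. The list of each replicate held 30000 regions, and those with a q-value below 0.05 numbered 8416, 13955 and 12195 in replicates 1, 2 and 3. A tRNA gene was called bound when the summit of an IDR peak lay within 500 bp of its start. In a replicate, the same was asked of its 4753 strongest regions by the authors' score. The score has no stated scale and is used only as a rank within a list, or as a percentile in which 100 would be the strongest. No source used here states how many reads were sequenced. Depth is therefore unknown, and the spread over 3 replicates is the only measure of precision.

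The bound genes carry the internal promoter that tRNA genes share. The sequences of 4 bound genes for different amino acids are shown because they differ in how many identical copies the genome holds, which bears on where reads can be placed. They run from the start to the end of the gene on its own strand, and were read from the RefSeq genome sequence of the dm6 assembly. Capitals mark the match to the B box, searched as GTTCNANNC. Pro-CGG-2-3 lies at chr3L:18618390-18618461 on the plus strand, Lys-TTT-1-1 at chr2L:8290727-8290799 on the plus strand, Asp-GTC-1-8 at chr2L:8683451-8683522 on the plus strand and Ser-GCT-2-4 at chr3R:22396799-22396880 on the minus strand.
Pro-CGG-2-3: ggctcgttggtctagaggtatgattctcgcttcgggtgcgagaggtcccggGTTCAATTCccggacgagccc
Lys-TTT-1-1: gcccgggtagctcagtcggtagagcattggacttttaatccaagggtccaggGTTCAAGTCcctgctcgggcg
Asp-GTC-1-8: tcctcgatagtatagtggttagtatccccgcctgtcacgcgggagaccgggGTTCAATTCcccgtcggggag
Ser-GCT-2-4: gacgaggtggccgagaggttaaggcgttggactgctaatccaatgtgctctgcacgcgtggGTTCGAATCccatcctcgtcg
The Lys gene has no identical copy on the arms, while the Asp sequence occurs in 12 genes, the Ser-GCT-2 sequence in 5 and the Pro sequence in 3. A B box match was found in 27 of 27 bound genes and in 244 of 263 unbound genes (92.8%), so it is close to universal in both.

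The DNA under the summits is shown in windows of 101 bases centred on the summit, read on the strand of the nearest tRNA gene, for the strongest peak and for 3 of the peaks that hold a known factor's letters. The Pro-CGG-2-3 window (chr3L:18618188-18618288, plus strand) is the strongest of the 19 and holds none of the letters searched for Insv, Elba, M1BP, DREF or BEAF-32. In the Ser-GCT-2-4 window (chr3R:22396853-22396953, minus strand) capitals mark CCAATAAG, the site of the Elba complex, which starts 7 bp upstream of the tRNA start. In the Asp-GTC-1-8 window (chr2L:8683377-8683477, plus strand) capitals mark CGATA, the core bound by the insulator protein BEAF-32, inside the gene. In the Leu-TAA-2-1 window (chr3R:24112604-24112704, plus strand) capitals mark GGTCACAC, the core bound by the promoter factor M1BP.
Pro-CGG-2-3 summit: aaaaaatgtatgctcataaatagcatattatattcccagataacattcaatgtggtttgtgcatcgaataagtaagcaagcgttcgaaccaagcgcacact
Ser-GCT-2-4 summit: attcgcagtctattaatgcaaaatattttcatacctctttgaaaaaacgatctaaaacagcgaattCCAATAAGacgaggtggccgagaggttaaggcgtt
Asp-GTC-1-8 summit: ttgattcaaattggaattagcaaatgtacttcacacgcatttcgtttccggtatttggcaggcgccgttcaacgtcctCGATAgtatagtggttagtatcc
Leu-TAA-2-1 summit: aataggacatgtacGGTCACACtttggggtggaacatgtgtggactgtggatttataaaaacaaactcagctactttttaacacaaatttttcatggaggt
These windows are a choice among 19, and a match of letters is not a binding site in itself.

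Insv summits lay near 27 of the 290 tRNA genes (9.31%, Wilson 95% interval 6.48 to 13.2%, which covers counting error only). By the same rule 22.8% of protein-coding gene starts were bound, and 3.03% of all bases of the arms lay within 500 bp of an IDR summit. In replicates 1, 2 and 3, 20, 28 and 34 tRNA genes were near one of the strongest regions, a share of 9.43% ± 2.42 (SD, n = 3). The share of protein-coding gene starts in the same lists was 23.1%, 22.4% and 20.1%, a mean of 21.9% ± 1.56, and that of bases was 2.97% ± 0.0765. In each replicate the share of tRNA genes therefore lay below that of protein-coding starts and above that of bases. The 27 genes drew on few peaks: only 22 IDR summits (0.463% of the list) lay within 500 bp of a tRNA start. Taking the strongest summit of each gene left 19 distinct ones, of which 7 served more than 1 gene.

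tRNA genes beside a protein-coding promoter were bound more often than other tRNA genes in every replicate. Of the 32 tRNA genes whose start lay within 500 bp of a protein-coding transcription start site (TSS), 9 were bound (28.1%, Wilson 95% interval 15.6 to 45.4%). Of the other 258 genes 18 were bound (6.98%, 4.46 to 10.8%). Among the strongest regions of replicates 1, 2 and 3 the near genes numbered 9, 9 and 8, and the others 11, 19 and 26. The shares were 27.1% ± 1.80 near a coding TSS and 7.24% ± 2.91 elsewhere. The difference, near minus other, was 23.9, 20.8 and 14.9 percentage points in the replicates, 19.8 ± 4.54 on average, positive in 3 of 3. An exact sign-flip permutation test over the 3 replicates, two-sided, gave p = 0.25, the smallest it can give here, so the design cannot reach 0.05. Adjusted over the 4 class differences tested this way, the Benjamini-Hochberg value from the exact test was 0.333.

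The genome shows the same contrast, so each class is set against its own part of it. Of bases within 500 bp of a protein-coding TSS, 16.2% lay within 500 bp of an IDR summit, and of all other bases 1.37%. In the replicates these shares were 15.8% ± 0.768 and 1.36% ± 0.0320. Near a coding TSS, the tRNA genes stood at 28.1%, 28.1% and 25.0% in replicates 1, 2 and 3, against 16.5%, 15.9% and 14.9% of bases. Away from coding promoters, they stood at 4.26%, 7.36% and 10.1%, against 1.37%, 1.33% and 1.39% of bases. In both classes the share of tRNA genes was above that of bases in 3 of 3 replicates, which score the same genes. For the near genes the Wilson interval in the IDR list, 15.6 to 45.4%, includes the 16.2% of bases. For the others the interval, 4.46 to 10.8%, lies above 1.37%, but it counts genes that share a summit as separate. Of the 19 summits, 8 lay within 500 bp of a protein-coding TSS and 11 did not. Without the summits near a coding TSS, 1 of the near genes would still be called, 3.12%, against 6.59% of the others. For the near genes the tRNA gene and the coding promoter cannot be told apart as the bound element.

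**Figure D1:**
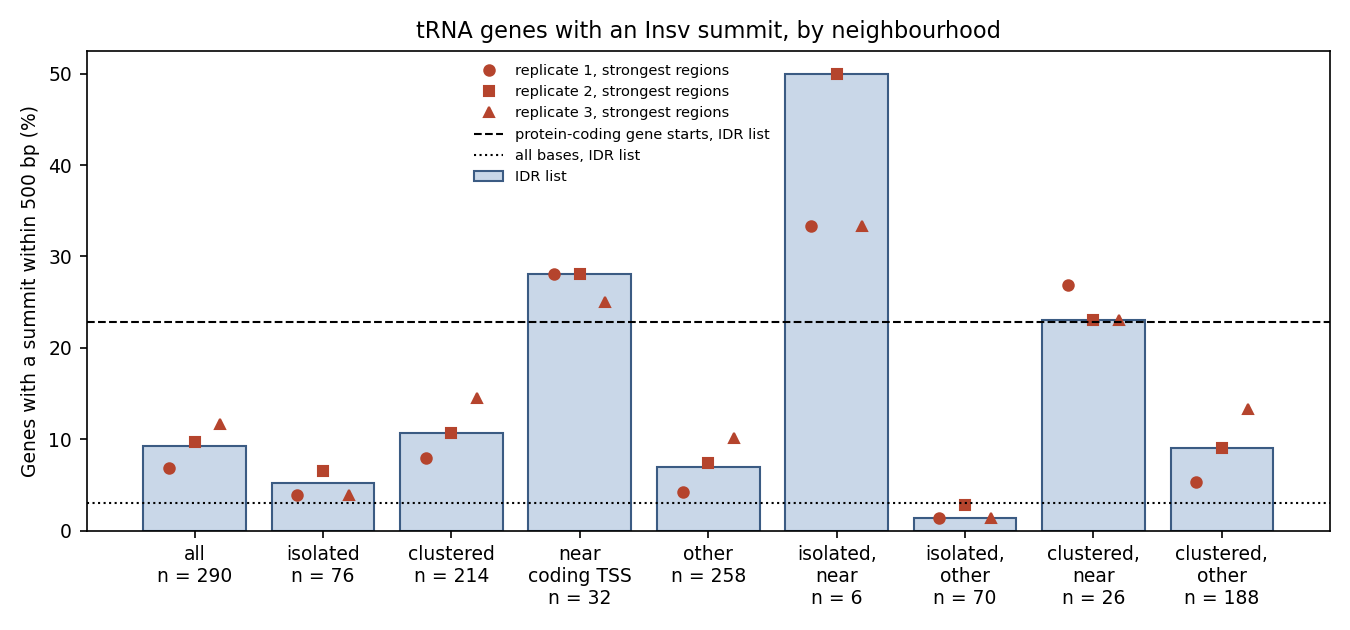
Share of tRNA genes with an Insv summit within 500 bp (vertical axis, percent) in each class of neighbourhood, with the number of genes below each bar. Bars give the IDR list, symbols the 4753 strongest regions of each replicate, and horizontal lines the shares of protein-coding gene starts (22.8%) and of all bases (3.03%) in the IDR list. Near genes reach 28.1%, and isolated genes away from coding promoters 1.43%.

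tRNA genes in clusters were bound more often than isolated ones in the IDR list, but outside a single chromosome arm the shares in that list were nearly equal. Isolated genes, with no other tRNA start within 5000 bp, were bound in 4 of 76 cases (5.26%, Wilson 95% interval 2.07 to 12.8%), and clustered genes in 23 of 214 (10.7%, 7.27 to 15.6%). In the replicates the shares were 4.82% ± 1.52 for isolated and 11.1% ± 3.28 for clustered genes. The difference, isolated minus clustered, was -4, -4.17 and -10.5 percentage points, on average -6.23 ± 3.73, negative in 3 of 3 replicates. The exact sign-flip permutation p was 0.25, the smallest possible, and 0.333 after adjustment. Arm 2R held 98 of the 290 genes and 13 of the 27 bound ones. On 2R, 0 of 20 isolated genes (an interval up to 16.1%) and 13 of 78 clustered genes (16.7%) were bound. Outside 2R the shares were 4 of 56 isolated genes (7.14%) and 10 of 136 clustered genes (7.35%). This arm was set apart after values were seen. Given its own shares, leaving it out had to narrow the difference, so the near equality is not a separate result. The replicates went both ways there, with 5.36%, 7.14% and 5.36% of isolated genes and 4.41%, 7.35% and 10.3% of clustered genes.

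Both features were then combined. Of the 6 isolated genes near a coding TSS, 3 were bound, and of the 26 clustered ones near a coding TSS, 6 (23.1%). Of the 70 isolated genes away from coding promoters only Lys-TTT-1-1 was bound (1.43%, interval 0.253 to 7.66%), with 1, 2 and 1 genes in the replicates, 1.90% ± 0.825. That share is close to the 1.37% of bases away from coding promoters. Of the 188 clustered genes away from coding promoters 17 were bound (9.04%, interval 5.72 to 14.0%), with 10, 17 and 25 in the replicates, 9.22% ± 3.99. Away from coding promoters it was thus the clustered genes whose share lay above that of bases in the IDR list, and 11 of the 17 bound ones lie on 2R (11 of 69, 15.9%). Outside 2R, 1 of 51 isolated genes away from coding promoters was bound (1.96%, and 1.96% in each replicate), and 6 of 119 such clustered genes (5.04%), with 1, 6 and 10 in the replicates. In replicate 1 the share of these clustered genes was 0.840%, below the 1.37% of bases away from coding promoters over all arms.

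Neighbours in a cluster can share a summit, so clusters were also counted as units. Chaining starts at 5000 bp gave 144 loci, of which 76 were single genes and 68 were clusters with a median of 2 genes. An IDR summit lay near a member in 14 clusters (20.6%), which hold 52 genes, 23 of them bound. In the IDR list larger clusters were not bound more often per gene. The share was 13.6% of genes in clusters of 2 to 3, 8.11% in clusters of 4 to 7 and 4.55% in the 2 clusters of 11 genes. Of those 2, the one on 2R from 6161535 to 6171687 had no bound gene, and the one on 3R from 17617761 to 17631679 had 1, Val-CAC-1-1 at its edge. Regions of any strength did not show this order. In replicates 1, 2 and 3 they lay near 37, 70 and 74 of 118 genes in clusters of 2 to 3. In clusters of 4 to 7 they lay near 28, 44 and 46 of 74 genes, and in those of 11 near 9, 16 and 19 of 22.

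Weaker regions gave another picture of the classes, and replicate 1 stood apart in it. A region of any strength lay within 500 bp of 102, 153 and 163 tRNA genes in replicates 1, 2 and 3, 48.0% ± 11.3. The same lists covered 18.0%, 16.7% and 16.7% of bases and 51.6% ± 0.934 of protein-coding gene starts. Isolated genes had a listed region in 28, 23 and 24 cases, and clustered genes in 74, 130 and 139. The difference, isolated minus clustered, was 2.26, -30.5 and -33.4 percentage points, -20.5 ± 19.8 on average. The exact permutation p was 0.50, also after adjustment, and the sign in replicate 1 was opposite to that in the other replicates. Most listed regions did not have a q-value below 0.05. With only those that did, 23.4% ± 9.45 of tRNA genes had a region. The shares in replicates 1, 2 and 3 were then 11.8%, 14.5% and 14.5% of isolated genes, and 13.1%, 31.3% and 36.4% of clustered genes. Clustered genes were thus higher in each replicate, a difference that was not tested. Genes near a coding TSS had a listed region more often than others in each replicate, 67.7% ± 16.0 and 45.6% ± 10.7, a difference of 22.1 ± 5.77 points (exact permutation p = 0.25, adjusted 0.333). Replicate 1 also had the fewest regions with a q-value below 0.05, 8416.

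The strongest peak at a tRNA gene lay at the isolated proline gene Pro-CGG-2-3, rank 182 of 4753. Its summit at 3L 18618238 was 152 bp upstream of the tRNA start and 295 bp from the TSS of CG13380. The tRNA gene lies in an exon of not, on the opposite strand; not encodes a ubiquitin protease of the SAGA complex. Its percentile was 99.3, 99.4 and 99.4 in replicates 1, 2 and 3, 99.4 ± 0.0784. The other isolated genes near coding promoters were Phe-GAA-1-2 (rank 1165) and Leu-TAA-2-1 (rank 4572). The Phe summit lay 18 bp from the TSS of RpL17, a ribosomal protein gene, and 287 bp from the tRNA start. Its percentile was 95.9 ± 0.229 (SD, n = 3). The Leu summit was one of the weakest of all, at 81.4, 88.7 and 78.5 in the replicates, 82.9 ± 5.30, and only replicate 2 placed it among its strongest regions.

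Lys-TTT-1-1 was the one isolated gene bound away from coding promoters. It lies in an intron of Btk, which encodes a cytoplasmic tyrosine kinase, on the opposite strand. The summit at 2L 8290259 (rank 482) was 468 bp upstream of the tRNA start and 6865 bp from the TSS of Btk. The percentiles 98.1, 98.3 and 98.3 hardly differed, with a mean of 98.3 ± 0.113. This summit is near the limit of the rule: a window of 250 bp would leave it out.

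Among clustered genes near coding promoters, the summit was mostly at the coding TSS. Gln-CTG-2-3 (rank 603) had its summit 48 bp from the TSS of CG4238 and 273 bp from its own start, with a percentile of 97.8 ± 0.0961. For Trp-CCA-2-2 (rank 1272) the distances were 9 bp to CG30122 and 296 bp to the tRNA, and the percentile was 95.1 ± 1.77. For Asp-GTC-1-5 (rank 1365) they were 38 bp to Sema1a, which encodes a semaphorin, and 348 bp to the tRNA, with a percentile of 95.2 ± 0.746. His-GTG-1-3 (rank 2169) was 155 bp from a summit that lay 95 bp from CG8490, at 91.0 ± 1.75. In these 4 the coding TSS was the nearer start. Tyr-GTA-1-8 (rank 904), the one bound gene with an intron, went the other way, with 200 bp to its own start and 244 bp to CG8036, at 96.7 ± 0.421. Asp-GTC-1-9 was counted as near a coding TSS because CG9289 starts 499 bp away, but its summit was 949 bp from that TSS and 24 bp from the start of Asp-GTC-1-8. Of the 8 summits with a coding TSS within 500 bp, 6 were closer to that TSS and the Pro and Tyr summits to the tRNA start.

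Among clustered genes away from coding promoters the strongest was a pair of asparagine genes in an intron of Ptr, Asn-GTT-1-7 and Asn-GTT-1-8. They point away from each other with 170 bp between their starts, and the summit at 2R 6190276 (rank 230) lay between them, 74 and 96 bp upstream. The percentiles were 98.9, 99.2 and 99.4, a mean of 99.1 ± 0.259, with the nearest coding TSS 5733 bp away. The next were 3 identical alanine genes in an intron of gol, which encodes a ubiquitin ligase. The authors called 1 region there, from 25075627 to 25077062 on 2R, with more than 1 summit. Its summit of rank 480 served Ala-CGC-1-2 (206 bp) and Ala-CGC-1-3 (489 bp), at 98.3 ± 0.347. Its summit of rank 493 lay 56 bp upstream of Ala-CGC-1-1, at 98.1 ± 0.679. These are all 3 genes with the CGC anticodon, so their calls rest on 1 region. Of the other alanine genes, 1 of 2 with TGC and 0 of 12 with AGC were bound, beside 9.31% of all tRNA genes.

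**Figure D2:**
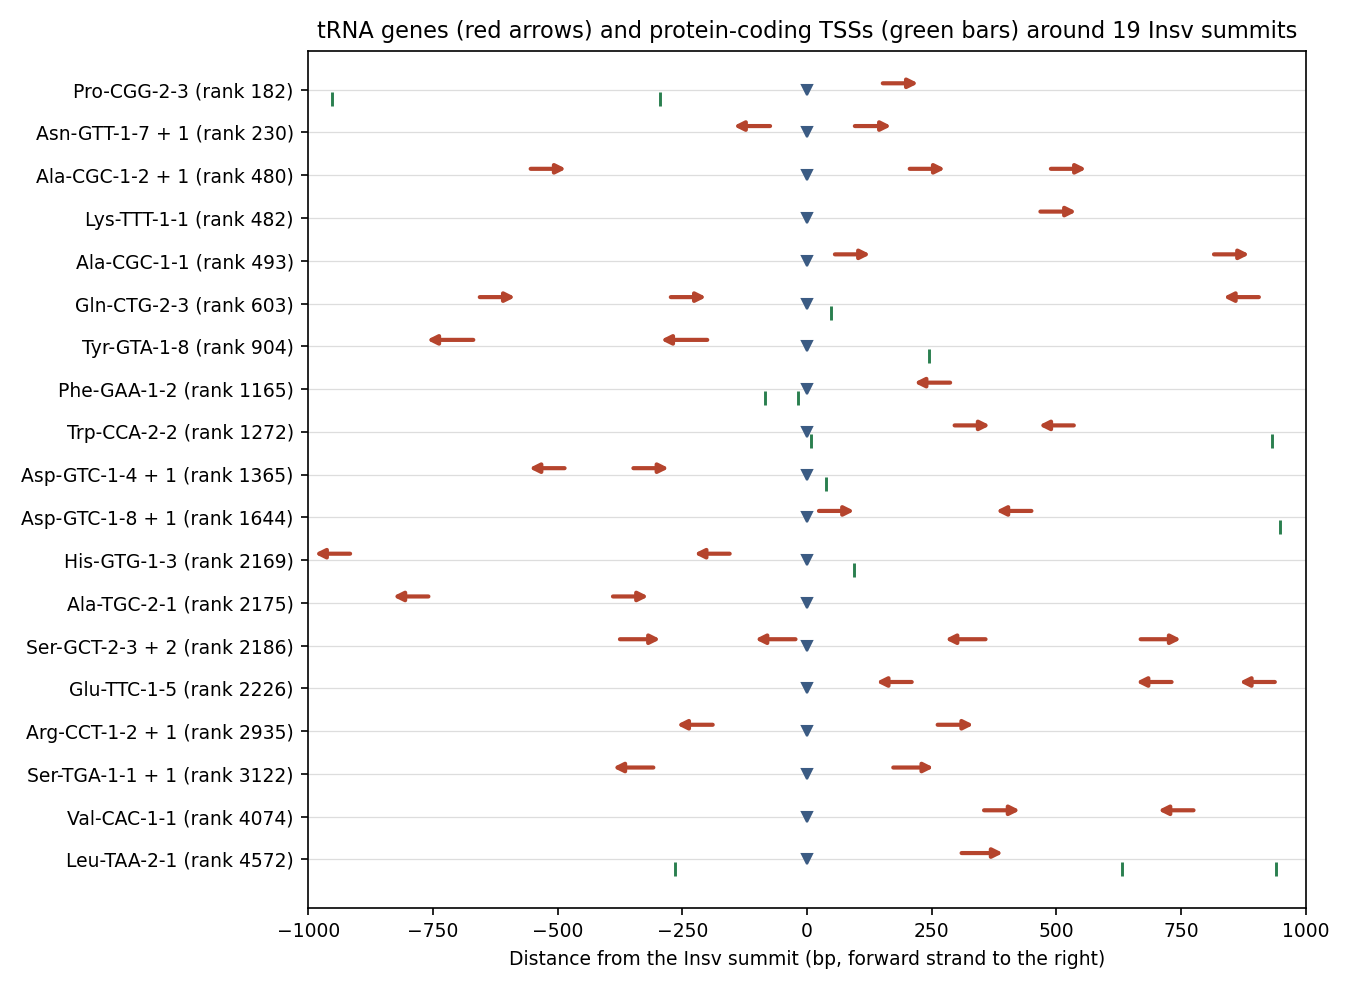
Position of tRNA genes (red arrows, pointing along transcription) and of protein-coding TSSs (green bars) within 1000 bp of the 19 summits (blue triangles at 0), with the forward strand to the right. Rows run from the strongest summit (rank 182) to the weakest (rank 4572), and a plus sign gives further bound genes of the same summit. Of the summits 8 have a coding TSS within 500 bp, and the Asn, Arg and Ser-TGA summits lie between genes that point away from each other.

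Some of the weaker summits away from coding promoters were less even between replicates. The trio Ser-GCT-2-3, Ser-GCT-2-4 and Ser-GCT-1-1 (rank 2186, 3R 22396903), with the Elba letters shown above, had percentiles of 82.5, 91.6 and 94.7. Ser-TGA-1-1 and Ser-TGA-2-1 (rank 3122) had 77.9, 91.2 and 90.6. Val-CAC-1-1 (rank 4074) had 65.8, 74.7 and 91.6, the widest spread of the 19. Replicate 1 was the lowest in these 3 cases. Arg-CCT-1-2 and Arg-CCT-1-3 (rank 2935) went the other way, with 90.4, 87.7 and 84.8. More even were Ala-TGC-2-1 (rank 2175), with 89.8, 92.6 and 92.7, and Glu-TTC-1-5 (rank 2226), with 93, 92.6 and 90.3. The pair Asp-GTC-1-4 and Asp-GTC-1-5 (rank 1365) shows how a fixed distance acts. Their summit lies at a coding promoter, 38 bp from the TSS of Sema1a. Asp-GTC-1-4 is classed as away from coding promoters only because its own start is 524 bp from that TSS. Replicate 1 had no region within 500 bp of Asp-GTC-1-4, although its region at 94.7 served Asp-GTC-1-5.

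Ranked over the IDR list, the bound tRNA genes covered nearly the whole range. The median percentile of their strongest summit was 65.4 (rank 1644), with 2 of 19 summits in the top 10% and 4 in the weaker 50%. The median was 73.3 for genes near a coding TSS and 54.1 for the others, and 82.7 for isolated and 65.4 for clustered genes. In the full lists of replicates 1, 2 and 3, 26, 27 and 27 of the 27 bound genes had a region, with median percentiles of 92.4, 93.3 and 95.1. The IDR list was made from the replicates, so high ranks of bound genes are set by the rule in part. Of the 27, 19 were among the strongest regions of all 3 replicates, 6 of a pair of replicates and 2 of a single one.

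**Figure D3:**
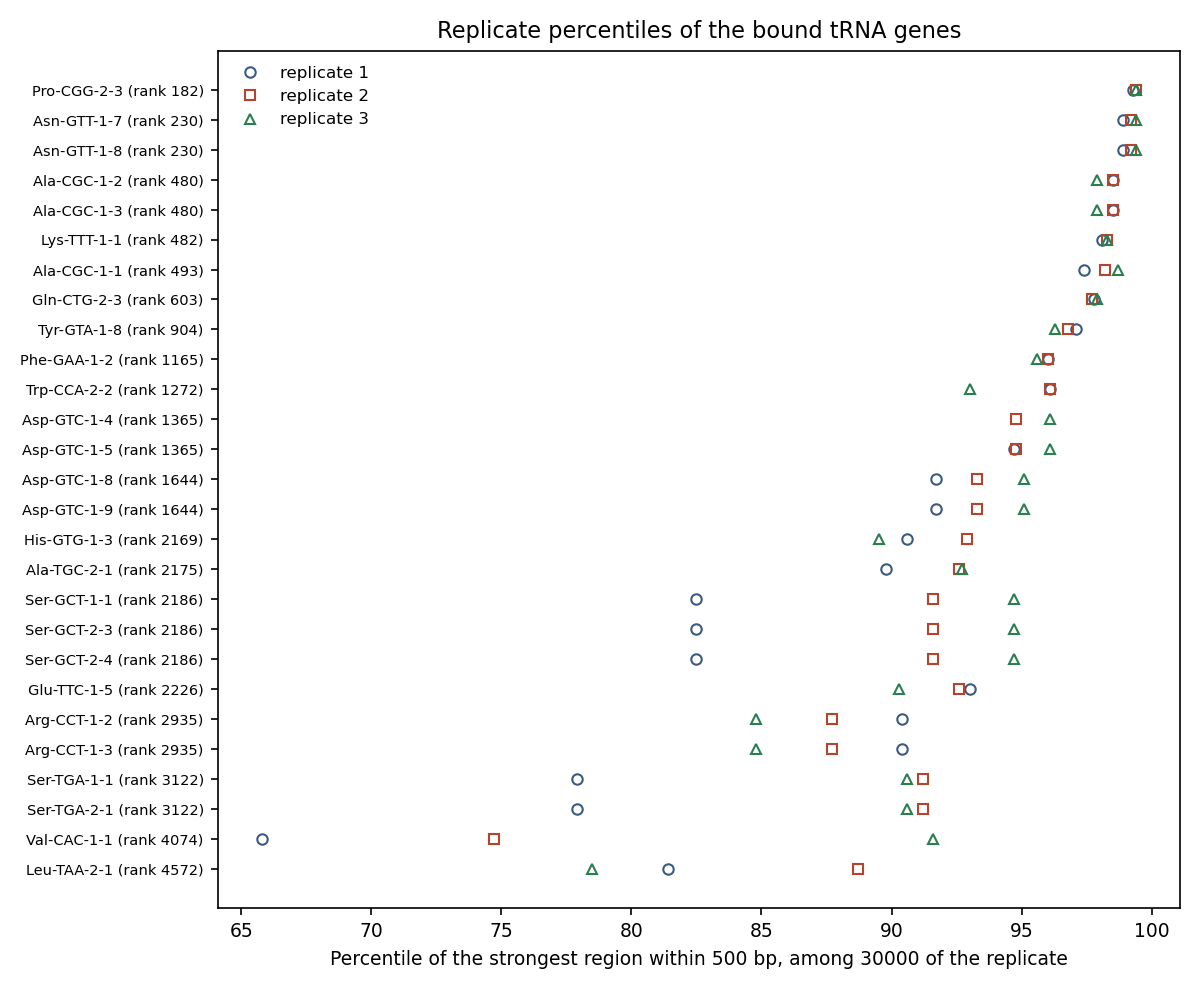
Percentile by score of the strongest region within 500 bp of each bound tRNA gene (horizontal axis, among 30000 regions) in each replicate, ordered by rank in the IDR list. The genes from Pro-CGG-2-3 down to Gln-CTG-2-3 lie at 97.4 or higher in all replicates, while Val-CAC-1-1 ranges between 65.8 and 91.6. Asp-GTC-1-4 has no point for replicate 1.

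Some unbound genes came close. Ser-GCT-2-5, in the same cluster as the bound Ser-GCT trio, had the highest mean percentile of the unbound genes, 81.6 ± 4.99, and its nearest IDR summit was 669 bp away. Gly-TCC-2-2 followed at 80.4 ± 3.90. Ser-AGA-2-4 was uneven, with 59.5, 78.8 and 89.2. Ser-CGA-1-4 and Val-AAC-2-1 shared a region at 75.8 ± 6.81, and Gln-TTG-2-1 had 74.5 ± 4.28. In all, 11 genes outside the IDR calls were near one of the strongest regions of a replicate, 1, 2 and 8 in replicates 1, 2 and 3, and none in more than 1. Just inside the 500 bp limit were Ala-CGC-1-3 (489 bp), Asp-GTC-1-4 (486 bp) and Lys-TTT-1-1 (468 bp). Just outside were Gly-GCC-1-9 (535 bp), Trp-CCA-2-3 (544 bp) and Gln-CTG-2-2 (656 bp). A listed region within 500 bp in all 3 replicates was found for 45 unbound genes, and in none for 89.

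The position of the summits was read along the strand of each tRNA gene. For 19 of the 27 bound genes the strongest summit was upstream of the start and for 8 downstream, with a median distance of 273 bp, and 0 of the 19 summits fell inside a tRNA gene. The rule limits the distance to 500 bp and a tRNA gene fills a small part of that window, so neither value is a result by itself. Over regions of any strength the sides were nearly even, with 69, 110 and 108 summits in the 500 bp upstream and 53, 100 and 108 in the 500 bp downstream in replicates 1, 2 and 3. In the IDR list the 500 bp before the start held 22 summits counted per gene, in bins of 100 bp from far to near 4, 5, 3, 5 and 5. The first 100 bp from the start held 0. Regions of any strength had their highest mean 101 to 200 bp upstream, with 24, 31 and 28 in replicates 1, 2 and 3, 27.7 ± 3.51. In replicate 3 the first 100 bp from the start held more, 31. In the bins beyond 500 bp on either side the means lay between 10 and 15. Over the replicates the first 100 bp from the start held 22.0 ± 8.54 such summits and the 100 bp before it 21.0 ± 8.89. In the first 100 bp only 54.5% of words of 32 bases occur once on the arms, compared with 90.6% or more in the other bins. The sources used here do not say how reads with several matches were placed, and the part of this in the counts was not tested.

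**Figure D4:**
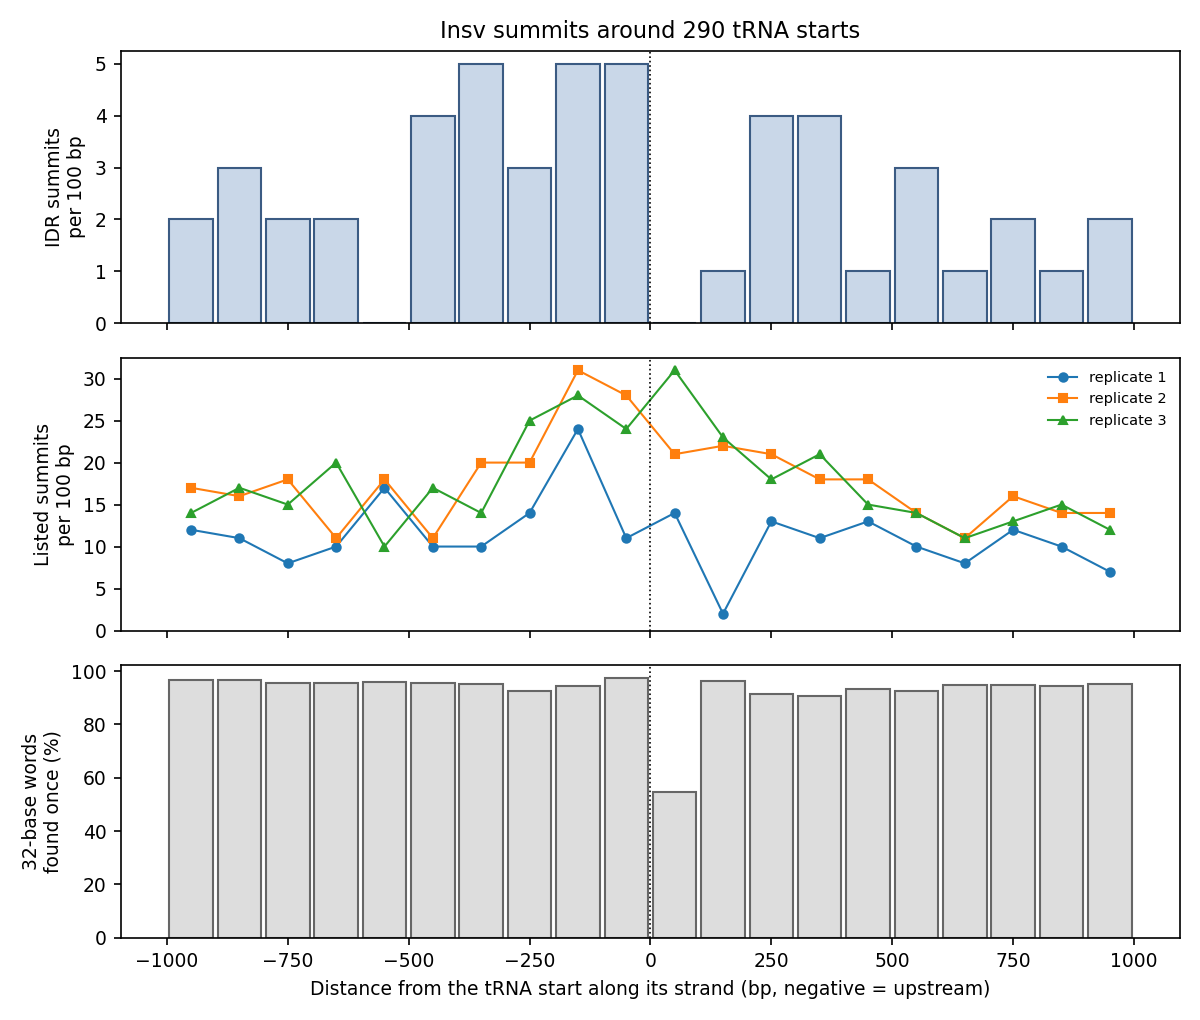
Number of Insv summits per 100 bp by distance from the start of the 290 tRNA genes (horizontal axis, bp, negative upstream) in the IDR list (top) and in all listed regions of each replicate (middle), with the percentage of 32-base words found once on the arms (bottom). The mean of listed summits is highest 101 to 200 bp upstream, at 27.7, while replicate 3 has its highest count, 31, in the first bin from the start. Unique words drop to 54.5% in the first bin from the start.

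Copy number and annotation separated bound from unbound genes little. An identical copy elsewhere on the arms existed for 19 of 27 bound genes (70.4%) and 219 of 263 unbound ones (83.3%). In the 500 bp around the start the median share of unique words was 90.6% for bound and 90.2% for unbound genes, though 9 unbound and 0 bound genes were below 50%. A run of 4 T within 30 bp after the gene, the polymerase III stop, followed 26 of 27 bound genes (96.3%) and 251 unbound ones (95.4%). Introns were present in 1 bound and 15 unbound genes. A protein-coding gene held 10 bound genes (37.0%) and 124 unbound ones (47.1%).

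Bound genes were spread over amino acids. Of 22 classes of tRNA by amino acid, initiator methionine and selenocysteine counted apart, 15 had a bound gene. Serine had 5 of 20, alanine 4 of 17, aspartate 4 of 14, arginine 2 of 26 and asparagine 2 of 10. Another 10 classes had 1 each. None was bound among the 20 glycine, 17 threonine, 11 isoleucine, 7 cysteine, 6 methionine and 6 initiator methionine genes or the single selenocysteine gene. Genes of a class share summits, so these counts rest on few peaks. At the 9.31% of all tRNA genes, few bound genes would fall in any class. Differences between amino acids are therefore not resolved. By arm, bound genes made up 14.6% on 2L, 13.3% on 2R, 7.59% on 3R, 4.17% on X and 2.08% on 3L.

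The orientation of neighbouring tRNA genes was examined after the maps had been seen. Of adjacent pairs with at most 1000 bp between starts, an IDR summit lay between the starts in 3 of 25 head-to-head pairs (12.0%, Wilson 95% interval 4.17 to 30%). It did so in 2 of 68 tandem pairs (2.94%, 0.810 to 10.1%) and in 0 of 22 tail-to-tail pairs, an interval up to 14.9%. In the replicates the shares were 13.3% ± 6.11, 2.45% ± 0.849 and 1.52% ± 2.62. The 3 head-to-head pairs were Asn-GTT-1-7 with Asn-GTT-1-8, Arg-CCT-1-2 with Arg-CCT-1-3, and Ser-TGA-1-1 with Ser-TGA-2-1. All 3 lie on 2R. For regions of any strength the shares were 36.0% ± 4 head to head, 25.5% ± 10.8 in tandem and 36.4% ± 24.1 tail to tail, which overlap. The stretches compared were unlike. Median gaps between starts were 214 bp head to head, 344 bp in tandem and 368 bp tail to tail. Head-to-head gaps hold no tRNA gene body, while the other gaps do. The part of this in the shares was not tested.

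The letters bound by Insv were rare at the summits of tRNA genes, and also over all IDR summits. The palindrome CCAATTGG was found within 50 bp of 0 of 19 summits and of 165 of 4753 IDR summits (3.47%), and within 250 bp of 0 and of 356 (7.49%). A longer degenerate form of the Insv site was found at 1 of the 19, the Asn pair, and at 4.50% of IDR summits. The Elba letters CCAATAAG were found at the Ser-GCT trio only, and at 1.83% of IDR summits. The related CCAATCAG was found at none and at 2.38%. Shares of this size cannot be resolved with 19 windows. Both strands were searched throughout.

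Letters of promoter and insulator factors were searched in the same way. GGTCACAC was found at Leu-TAA-2-1 only, and at 2.76% of IDR summits. CGATA was found at 2 of 19 summits (10.5%), Trp-CCA-2-2 and the Asp-GTC-1-8 pair, and at 19.5% of IDR summits. TATCGATA, the site of the promoter factor DREF, contains CGATA and was found at none within 50 bp and at 3.09% of IDR summits. GAGAG, bound by GAGA factor, was found at the Ser-GCT trio only, where it lies inside the Ser-GCT-2-4 gene, and at 14.4% of IDR summits. Within 250 bp, CGATA was found at 8 of 19 summits (42.1%) and 57.4% of IDR summits, GAGAG at 8 of 19 (42.1%) and 52.1%, and TATCGATA at 2 of 19 (10.5%) and 9.57%. The B box letters GTTCNANNC were found within 50 bp of 5 of 19 summits (26.3%) and of 4.10% of IDR summits, and in none of these cases inside an annotated tRNA gene. The 5 were the summits of Pro-CGG-2-3, Ala-CGC-1-2, Trp-CCA-2-2, His-GTG-1-3 and Leu-TAA-2-1. Within 250 bp, 11 of 19 summits had a match inside a tRNA gene and 3 more (15.8%) had one outside only. Of all IDR summits, 13 of 4753 had one inside a tRNA gene and 16.7% had one outside only. A summit with a match inside a gene is never counted as outside only, so the 15.8% and 16.7% cannot be compared. The median GC content of the 101-base windows was 36.6% at tRNA genes and 40.6% over all IDR summits.

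Other RNA polymerase III genes were set beside the tRNA genes. U6:96Ab and U6:96Ac, which encode the U6 RNA of the spliceosome, shared a summit of rank 1962, at 423 and 100 bp, with ranks 2939, 2264 and 1960 in the replicates. U6:96Aa, U6atac, both 7SL RNA genes and the RNase P RNA gene were not bound. The RNase MRP RNA gene was near a strong region in replicates 2 (rank 4038) and 3 (rank 4564) only. None of the 96 5S rRNA genes had a region in any list, but the highest share of unique words around any of them was 34.9% and the median 0%. Whole annotation classes were counted too, which are not limited to polymerase III genes. Bound were 11 of 32 snRNA genes (34.4%), 15 of 269 snoRNA genes (5.58%) and 188 of 3289 other noncoding RNA genes (5.72%). These shares are therefore not values for polymerase III genes.

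Genes for the machinery that makes tRNA were described as a list of 18. Of these, 9 had an IDR summit no farther than 500 bp from one of their TSSs (50%), while by that rule 24.7% of all protein-coding genes were bound. The strongest was at Polr3A, the largest subunit of RNA polymerase III, with rank 45 and a summit 89 bp from the TSS on X. Its ranks of 60, 44 and 43 in the replicates were close together. Polr3F followed at rank 218, with 218, 221 and 225 in the replicates, at a promoter shared with PyK, the pyruvate kinase gene. Polr3E (rank 999), Polr3C (rank 2928) and the TFIIIB subunits Brf (rank 1022) and Bdp1 (rank 1163) were also bound, each with a neighbouring gene's TSS within reach of the same summit. Tbp, the TATA-binding protein, had rank 3515. La, which protects the ends of new polymerase III transcripts, had rank 3756, and RNaseZ, which trims tRNA precursors, rank 4397. Each of these was missing from the strongest regions of 1 replicate. The La and RNaseZ summits also had a neighbouring gene's TSS within reach, of RtGEF and CG12909, while those of Polr3A and Tbp did not. Members without an IDR summit in reach included the polymerase subunit gene Polr3B, Trf, the TBP-related factor that works with Brf at fly tRNA genes, Rpp30 and Maf1, a repressor of the polymerase.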

How the data were processed

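ChIP-seq regions from 3 replicates of a single group were used on dm6. Per the file headers, the authors called regions for each replicate and for the replicates pooled against a control alignment, and deposited the peaks that passed IDR. The deposited score of each region has no stated scale and was ranked within a list only. Significance was deposited as −log10 q-values, which served to count regions below 0.05 and the tRNA genes near them. The deposited summit is an offset from the region start. The caller, aligner and IDR threshold are not given in any source used here. Depth is unknown. The lists on dm3 were not used, and no coordinates were converted.

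Genes came from Ensembl release 115 (BDGP 6.54) on 7 arms, and sequence from RefSeq. Shares have Wilson 95% intervals. Differences between classes were tested over replicates by an exact sign-flip permutation. Regions and genes are not replicates, so no test was run over them. Named are up to 6 bound genes with the highest score in each of the 4 classes (isolated or clustered, near a coding TSS or not), the 6 unbound genes with the highest mean percentile, the 3 genes on each side of the 500 bp limit, and a list of 18 genes for polymerase III and tRNA maturation, not all of which are reported here by name; other bound genes, pair orientation and the places of B box matches were added after values were seen. The split by arm 2R was also added after values were seen. Members and lists were chosen with earlier results of these data known. Alternatives varied the distances, peaks, replicates and genes. The software was scipy 1.17.1, pandas 2.3.3 and numpy 2.4.6 under Python 3.11.15, with plots by matplotlib 3.10.9.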

Additional observations from a re-analysis of the deposited data

How the results depend on the processing

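The main shares were 9.31% of all tRNA genes, 5.26% of isolated, 10.7% of clustered, 28.1% of near and 6.98% of other genes, with a median percentile of 65.4. With a 250 bp window they were 4.14%, 1.32%, 5.14%, 9.38% and 3.49%. With 1000 bp they were 14.5% of all, 17.8% of clustered, 34.4% of near and 12.0% of other genes. Asking for a peak region over the tRNA gene gave 4.14%, 1.32%, 5.14%, 6.25% and 3.88%, with a median percentile of 77.7. The stronger 50% of the IDR peaks gave 25.0% of near genes. Leaving out each replicate in turn gave 25.0% of near genes every time, 6.90 to 8.62% of all, 3.95% of isolated, 7.94 to 10.3% of clustered and 4.65 to 6.59% of other genes, and percentiles of 71.3 to 74.4. This is a stricter filter, since the IDR list still drew on all replicates. Clusters chained at 1000 bp gave 3.74% of isolated genes. A coding TSS within 250 bp or 1000 bp gave 16.7% and 13.9% of near genes, and clusters as units gave 12.5% of loci.

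Another set of alternatives was chosen after seeing the data. Without arm 2R the shares were 7.14% of isolated, 7.35% of clustered and 31.8% of near genes. Summits farther than 500 bp from every protein-coding TSS gave 6.21% of all, 1.32% of isolated and 3.12% of near genes, with a percentile of 54.1. Genes with at least 80% unique words gave 30% of near genes. Of the values recomputed, 42 moved by less than the spread between replicates and 31 by more. Isolated genes were lower than clustered ones in 13 of 13 alternatives that give both. The 13 include the run without arm 2R, where 7.14% and 7.35% were nearly equal. Near genes were higher than others in 12 of 13, the exception being the summits far from coding TSSs. All alternatives reuse the same genes and peak lists, so these tallies are not independent support for either order. The cause of the shifts in the values was not tested. No paired analysis was possible because all samples form a single group and there is no second one to pair them with; the differences between gene classes were taken within each replicate. With 3 replicates and no known depth, small differences between classes cannot be resolved.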
